A study of Mus musculus with 6 samples.

Results

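The phagocyte NADPH oxidase genes Cybb, Cyba, Ncf1, Ncf4, Rac2 and Vav1 were taken from the deposited mouse gene count table by gene name. All 6 names matched 1 row each among 56748 genes, and all 6 passed the filter on low counts that left 15963 genes for testing. The oxidase is the enzyme with which neutrophils and macrophages make superoxide from oxygen and NADPH in order to kill microbes. Its catalytic core, flavocytochrome b558, is a membrane pair of gp91phox (Cybb) and p22phox (Cyba), and it is silent until cytosolic subunits dock on it. p47phox (Ncf1) organises this assembly, p40phox (Ncf4) binds a membrane lipid of the phagosome, and the GTPase RAC2 joins the complex after exchange factors such as VAV1 have loaded it with GTP. The oxidase genes are switched on as myeloid cells mature, and loss of the core subunits causes chronic granulomatous disease.

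The libraries were bulk RNA sequencing of mouse leukemia cells driven by MLL-AF9, an oncogenic fusion of the histone methyltransferase MLL. They comprised 3 libraries labelled wild type for the splicing factor gene Rbm5 (numbers 25, 27 and 29) and 3 labelled Rbm5 knockout (numbers 31, 32 and 40). All 6 carry MLL-AF9, which the labels give as the cell line, with bone marrow as the tissue and whole bone marrow as the cell type, while 1 protocol line speaks of cultured cells. The labels call the samples independent replicates, and name no strain, age, Cre driver or knockout clone. The design text describes primary leukemia cells from marrow and asks about RBM5 and the MLL self-renewal program. Expression is given in CPM, a gene's count per unit of library size, with library sizes scaled by the trimmed mean of M-values (TMM).

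Total counts were 26359299 to 31807588 per library. Rbm5 itself was at 173.6 to 227.5 CPM in the wild-type and 245.3 to 269.0 CPM in the knockout libraries, so the targeted gene was not lower where the label says knockout. Groups are named below by their labels, and each direction rests on them. The Y-linked gene Ddx3y had 0 counts in each wild-type library and 2645 to 3311 in the knockout libraries, while Xist, the RNA of the inactive X, was at 1269 to 1625 CPM in wild type and 13.0 to 192.2 CPM in knockout. Sex and the knockout label therefore cannot be told apart. Over all genes tested, 5.45% were called higher and 8.57% in either direction by the edgeR test described below. Those called lower were 498 of 15963. Groups did not overlap, with knockout on top, for 17.2%. These are the shares to set beside the marker counts that follow. Markers of maturing neutrophils moved with the label: 10 of 15 listed genes rose, 15 of 15 had groups that did not overlap, and none was at 0. Their summed level was 1230 to 4035 CPM in wild type and 13177 to 30021 CPM in knockout. The largest parts of that sum were Chil3 (means of 1036 and 8644 CPM) and Ngp (495.3 and 3787 CPM), and neither was called. Chil3 was uneven within knockout, at 1709, 11768 and 12455 CPM in libraries 31, 32 and 40. Of 14 monocyte and macrophage markers, 3 rose, with a summed level of 1875 to 2825 CPM in wild type and 3915 to 6171 CPM in knockout and none at 0. Much of the rise in that sum was Lyz2, with means of 653.9 and 2725 CPM. Ly6c2 went the other way (942.1 and 766.8 CPM, not called). The log2 fold change was positive for 13 of the 14. Ms4a7, 1 of the 3 that rose, had means of only 0.115 and 0.770 CPM. Of 8 leukemic and progenitor markers, 2 fell, Cdk6 (means of 1303 and 655.9 CPM) and Hoxa9 (253.0 and 110.3 CPM). The other 6 were not called, and 0 of the 8 had a positive log2 fold change. The summed level of the 8 was 2993 to 3440 CPM in wild type and 1791 to 2355 CPM in knockout. Apart from the promyelocyte list, which is given last, lists for other marrow cells had summed levels below these. Over 7 dendritic cell genes the sum was 258.6 to 303.7 CPM in wild type and 90.0 to 260.9 CPM in knockout, with 0 of 4 tested genes called and 0 of 4 positive. Over 6 megakaryocyte genes it was 11.0 to 16.1 and 17.3 to 27.8 CPM, with no overlap, and 1 of 4 tested genes rose (Gp9). Over 10 eosinophil, basophil and mast cell genes it was 81.2 to 176.4 and 132.9 to 181.8 CPM, with Fcer1a at 0, and 1 of 6 rose (Prg2, log2 fold change 3.34). Over 11 B lineage genes it was 97.3 to 165.0 and 81.1 to 201.7 CPM, and 1 of 5 fell (Vpreb3). Over 10 erythroid genes it was 177.7 to 233.7 and 186.9 to 218.9 CPM, and 1 of 5 rose (Hbb-bs). No gene passed among 6 tested T and NK cell genes (29.8 to 65.5 and 20.6 to 62.6 CPM over 12) or 4 tested stromal genes (99.6 to 184.1 and 81.6 to 167.3 CPM over 7). Single genes made up most of some sums by group mean, in wild type and knockout. These were Tfrc (194.4 and 200.2 CPM, erythroid), Flt3 (223.6 and 121.8, dendritic), Pecam1 (141.4 and 106.4, stromal) and Nkg7 (48.1 and 40.4, T and NK). Flt3 is also on the progenitor list. The called Hbb-bs (0.113 and 1.01 CPM), Vpreb3 (1.61 and 0.198) and Gp9 (0.888 and 2.69) were near the floor. The sums are therefore not levels of cell types. These single markers were named after their values were seen. Of 6 promyelocyte markers, 1 rose and 1 fell, at 2085 to 3475 CPM summed in wild type and 3319 to 5173 CPM in knockout. More cells of a type and more RNA per cell cannot be told apart in bulk libraries, and the part of the markers in the values below was not tested.

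Promoters are shown because the oxidase genes are described targets of PU.1, an ETS factor, and of interferon regulatory factors (IRF). RefSeq's promoter table (build GRCm38.p6, 250 bases before to 50 after the start site) held 4 of the 6 members: Cybb at chrX:9469275-9469574 (minus strand), Ncf1 at chr5:134229576-134229875 (minus), Cyba at chr8:122432891-122433190 (minus) and Vav1 at chr17:57278850-57279149 (plus). Capitals mark matches on either strand to GAGGAA (PU.1 core), GGAAGT (ETS), GAAANNGAA (IRF), TTGCNNAA (C/EBP), CCAAT or TATAAA.
Cybb: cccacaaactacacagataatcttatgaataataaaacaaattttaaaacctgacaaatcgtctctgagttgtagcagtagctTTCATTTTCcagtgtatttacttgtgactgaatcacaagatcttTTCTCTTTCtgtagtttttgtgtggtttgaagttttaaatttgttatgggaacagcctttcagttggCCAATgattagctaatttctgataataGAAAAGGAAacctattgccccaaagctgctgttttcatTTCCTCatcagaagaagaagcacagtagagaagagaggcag
Ncf1: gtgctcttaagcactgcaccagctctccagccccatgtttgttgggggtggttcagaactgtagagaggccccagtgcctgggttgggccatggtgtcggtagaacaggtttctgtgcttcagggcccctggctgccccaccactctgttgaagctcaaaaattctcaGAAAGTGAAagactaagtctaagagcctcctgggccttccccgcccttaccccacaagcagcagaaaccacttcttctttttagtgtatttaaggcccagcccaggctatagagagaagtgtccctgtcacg
Vav1: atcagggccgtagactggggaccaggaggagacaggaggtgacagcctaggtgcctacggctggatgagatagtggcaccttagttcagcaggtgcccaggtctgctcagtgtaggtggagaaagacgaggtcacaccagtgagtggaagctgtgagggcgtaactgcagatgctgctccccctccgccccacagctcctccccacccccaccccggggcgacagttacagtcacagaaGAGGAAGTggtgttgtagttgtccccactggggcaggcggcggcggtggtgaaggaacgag
Cyba: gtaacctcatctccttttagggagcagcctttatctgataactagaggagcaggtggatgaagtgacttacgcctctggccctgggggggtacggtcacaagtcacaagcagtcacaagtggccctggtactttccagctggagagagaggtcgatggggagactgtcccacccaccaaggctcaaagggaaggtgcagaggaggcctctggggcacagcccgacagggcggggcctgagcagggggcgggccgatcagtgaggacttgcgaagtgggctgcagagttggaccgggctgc

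In the Cybb window the IRF letters occurred 3 times, with first bases at -167, -123 and -29 from the start site, the CCAAT letters once at -56, and the PU.1 core once at 10. Ncf1 had the IRF letters at -82. Vav1 had the PU.1 core at -11 and the ETS letters at -9, which share 4 bases in 1 run. Cyba had no match to any of the 6 motifs. Over all 32851 promoter entries of this length, 28.3% held the PU.1 core, 23.8% the ETS letters, 8.56% the IRF letters, 10.8% the C/EBP letters, 37.4% CCAAT and 13.6% TATAAA. GC content was 35.3% for Cybb, 54.0% for Ncf1, 60.7% for Cyba and 61.7% for Vav1. These matches describe letters in a window and show no binding. The promoter positions are those of GRCm38.p6, while the gene positions given below are as deposited. For none of the 4 genes did the promoter window overlap the deposited gene or reach its start. Cyba, for example, has its window at chr8:122432891-122433190 and its deposited gene at 123151515 to 123159669. Promoter and gene positions should therefore not be read on the same coordinates.

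The comparison of knockout with wild type showed the oxidase genes at higher levels in the libraries labelled knockout. Cybb, Ncf1, Ncf4 and Rac2 rose, by 2.41-, 1.86-, 1.95- and 1.37-fold, while Cyba and Vav1 had folds of 1.35 and 1.32 that did not pass the test. For all 6 members every knockout library lay above every wild-type library. Calls are from edgeR's quasi-likelihood test with Benjamini-Hochberg adjustment over all 15963 genes and a threshold of 0.05. By that rule 4 of 6 members were called higher, where 5.45% of all tested genes were called higher and 8.57% in either direction. The count was 3 without wild-type library 25 and 2 without any other single library (wild-type 27 or 29, knockout 31, 32 or 40). Groups that do not overlap with knockout on top were found for 17.2% of all tested genes. Taking knockout minus wild type, the median over the members was 0.68 on the log2 scale, against -0.01 over all genes tested.

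**Figure D1:**
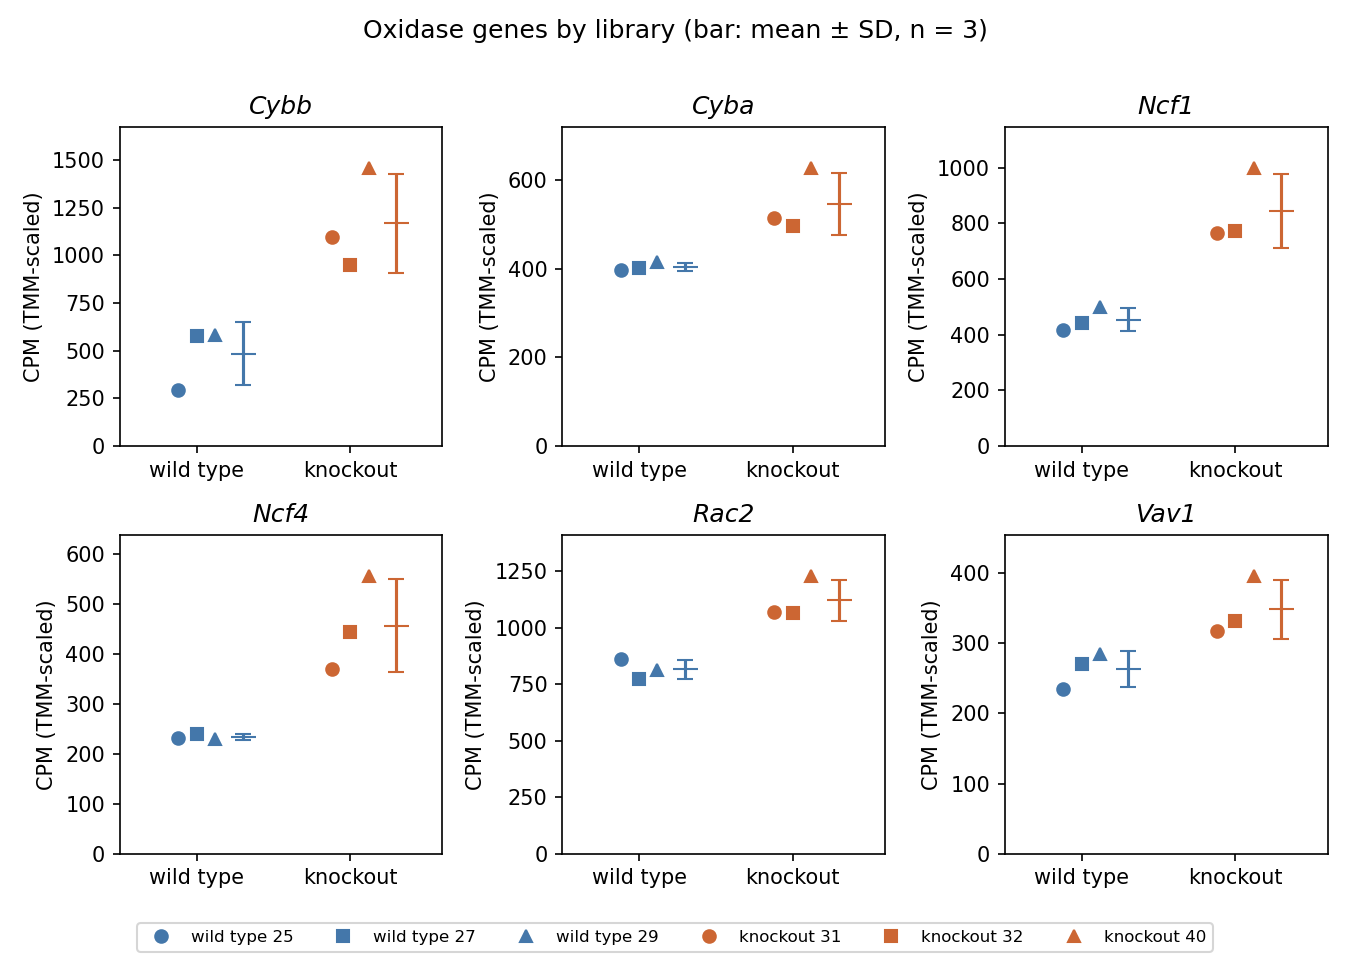
TMM-scaled CPM (vertical axes, starting at 0) of the 6 oxidase genes in the 3 wild-type and 3 knockout libraries. Symbols are libraries and bars are mean ± SD. In each panel the knockout libraries lie above the wild-type libraries, and knockout library 40 is the highest.

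Of the membrane pair, the catalytic subunit gene had the larger difference. Cybb (ENSMUSG00000015340, chromosome X, 9301491 to 9354010, minus strand; positions here and below are as deposited, with no build named beside them) had 292.3, 577.0 and 582.1 CPM in wild-type libraries 25, 27 and 29. Its levels were 1097, 951.6 and 1456 CPM in knockout libraries 31, 32 and 40. Wild-type library 25 was well below the other wild-type libraries, and the groups did not overlap. The means were 483.8 ± 166 and 1168 ± 260 CPM (SD, n = 3 each), with a log2 fold change of 1.27 (95% confidence interval 0.58 to 1.96, edgeR adjusted p = 0.0452). The call held without wild-type library 25 (log2 fold change 1.01, adjusted p = 0.0352). It was lost without wild-type library 27 or 29 (adjusted p = 0.0795 and 0.0795) and without knockout library 31, 32 or 40 (0.105, 0.058 and 0.139). Cybb is X-linked, and the part of sex in its difference was not tested. Of 457 X-linked genes tested, 24 were called higher and 14 lower (8.32% called), and their median log2 fold change was -0.04. The 3 tested genes within 500 kb of Cybb held no call.

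Cyba, which stabilises gp91phox and carries the docking tail for p47phox, was even across wild-type libraries at 397.9, 400.6 and 414.4 CPM (library 25, 27 and 29). Its levels in knockout libraries 31, 32 and 40 were 514.6, 495.8 and 626.1 CPM. The knockout values were higher and more spread, and the groups did not overlap. Cyba (ENSMUSG00000006519, chromosome 8, 123151515 to 123159669, minus strand) had means of 404.3 ± 8.85 and 545.5 ± 70.4 CPM. Its log2 fold change of 0.43 (95% interval 0.18 to 0.69) did not pass the edgeR test (adjusted p = 0.0509).

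The genes of the 2 cytosolic phox subunits among the members, Ncf1 and Ncf4, had the firmest differences. Ncf1 (ENSMUSG00000015950, chromosome 5, 134248907 to 134258479, minus strand) had 417.8, 443.7 and 498.4 CPM in wild-type libraries 25, 27 and 29. Knockout libraries 31, 32 and 40 had 766.3, 771.7 and 997.8 CPM. The gap between the groups was wider than the range within either. The means were 453.3 ± 41.2 and 845.3 ± 132 CPM, the log2 fold change was 0.90 (95% interval 0.59 to 1.21, edgeR adjusted p = 0.0107), and leaving out any 1 library kept the call, with adjusted p of 0.0178 to 0.0367. Gtf2ird2, named because it overlaps Ncf1 on the other strand, shares 4303 bases with it, from 134248907 to 134253209. It is a much weaker gene, at 47.5 ± 0.457 and 72.2 ± 8.42 CPM, and it too rose, by 0.60 on the log2 scale (edgeR adjusted p = 0.0192). The sources used here do not say how counting treated strand, and reads in the shared stretch are therefore uncertain for both genes.

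Ncf4 (ENSMUSG00000071715, chromosome 15, 78129001 to 78146780, plus strand) was nearly level across wild-type libraries 25, 27 and 29, at 231.8, 239.9 and 228.6 CPM. Knockout libraries 31, 32 and 40 had 369.6, 443.6 and 554.5 CPM. These lay above wild type and were spread over a wider range. The log2 fold change was 0.97 (95% interval 0.63 to 1.30, edgeR adjusted p = 0.0109), and the adjusted p was 0.0115 to 0.0355 with any 1 library left out.

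The GTPase and its exchange factor had smaller differences. Rac2 (ENSMUSG00000033220, chromosome 15, 78443367 to 78456983, minus strand), the RAC form largely restricted to blood cells, was at 860.5, 775.7 and 813.7 CPM in wild-type libraries 25, 27 and 29. Knockout libraries 31, 32 and 40 had 1068, 1068 and 1228 CPM. The groups did not overlap. The log2 fold change was 0.46 (95% interval 0.22 to 0.69, edgeR adjusted p = 0.0349). This call was lost whichever single library was left out, with adjusted p from 0.0548 (without knockout library 32) to 0.111 (without wild-type library 27). It was also lost with total counts as the only scaling (log2 fold change 0.33, adjusted p = 0.0641), a choice that shifted the median over all genes by -0.12 on the log2 scale.

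Vav1 (ENSMUSG00000034116, chromosome 17, 57586100 to 57635031, plus strand), which turns tyrosine kinase signals into RAC activation, was at 234.2, 270.6 and 283.8 CPM in wild-type libraries 25, 27 and 29. Knockout libraries 31, 32 and 40 had 316.4, 331.5 and 394.7 CPM. The knockout values were higher, with a gap between the groups that was smaller than the range within wild type. The log2 fold change of 0.40 (95% interval 0.13 to 0.68) did not pass the edgeR test (adjusted p = 0.0764).

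Ncf4 and Rac2 lie on the same chromosome, 296.6 kb apart in the table's coordinates. Within 500 kb on either side, 27 other genes were tested around Rac2, of which 7 rose and 0 fell (median log2 fold change 0.31), and 19 around Ncf4, of which 4 rose and 1 fell (median 0.27). Each of the pair is counted among the other's neighbours. Around Cyba 1 of 28 tested genes rose and 1 fell, around Ncf1 1 of 12 rose and 1 fell, and around Vav1 2 of 21 rose. Over all genes tested, 5.45% were called higher and 8.57% in either direction. On chromosome 15 as a whole, 52 of 615 tested genes rose and 13 fell (10.6% called, median log2 fold change 0.01). The 2 windows on chromosome 15 overlap, so their genes are partly the same.

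Levels between genes were compared per length, as RPKM, which is CPM divided by the deposited gene length in kilobases. Which transcripts that length covers is not known here, and the order and ranks of the genes rest on it. In wild type the order was Cyba (389.1 ± 8.52 RPKM), Rac2 (263.2 ± 13.7), Ncf1 (123.7 ± 11.2), Ncf4 (115.6 ± 2.87), Cybb (83.3 ± 28.6) and Vav1 (71.3 ± 6.96; SD, n = 3 each). In knockout it was Cyba (525.0 ± 67.8 RPKM), Rac2 (361.3 ± 29.8), Ncf1 (230.8 ± 36.1), Ncf4 (225.7 ± 46.1), Cybb (201.1 ± 44.7) and Vav1 (94.2 ± 11.3). The order was the same in both groups. Ncf1 and Ncf4 did not differ beyond their spread in either group, nor did Cybb and Vav1 in wild type. In knockout, Cybb did not differ beyond the spread from Ncf1 or from Ncf4. All 6 were strongly expressed already in wild type: among 12510 protein-coding genes tested, Cyba ranked 66 and Vav1 558 by mean RPKM, and Cybb went from rank 448 to 213.

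**Figure D2:**
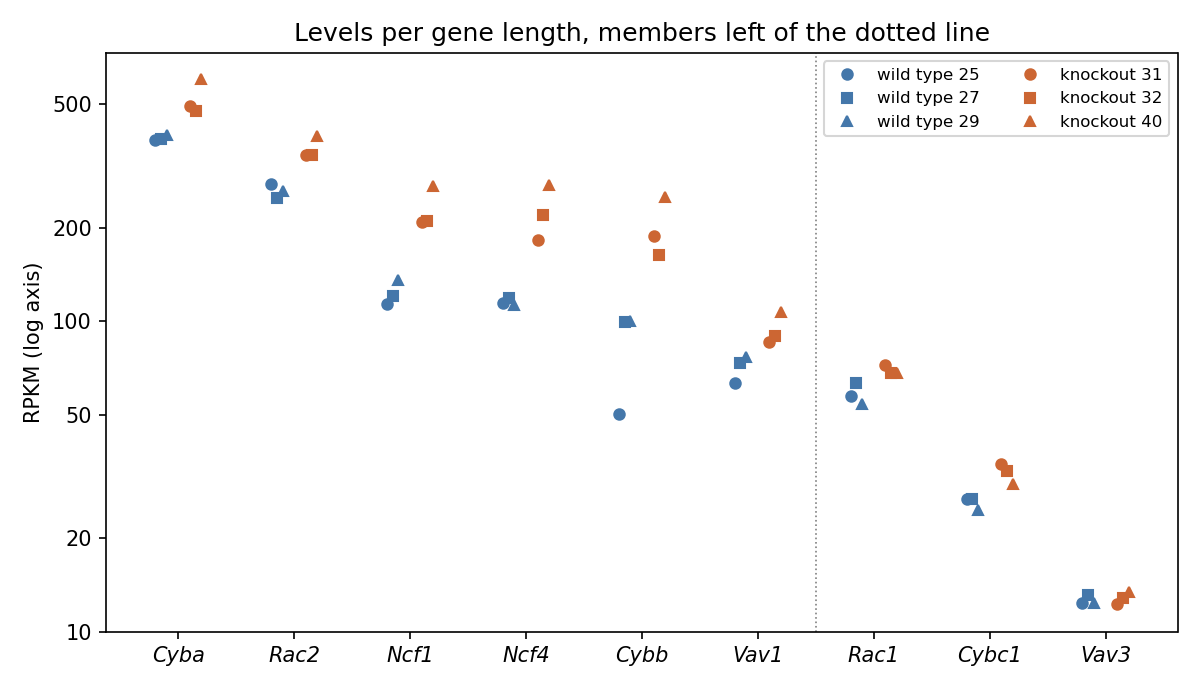
Levels in RPKM (log axis) of the 6 members, left of the dotted line, and of 3 partner or related genes, right of it, with 1 symbol per library. Cyba is the highest gene in both groups, and wild-type library 25 lies at 50.3 RPKM for Cybb, below the 99.3 and 100.2 RPKM of the other wild-type libraries.

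Partners were also compared as ratios of RPKM within a library, in which scaling cancels. The deposited gene lengths set the size of each ratio but not its log2 difference between the groups. The Cybb to Cyba ratio was 0.131, 0.258 and 0.251 in wild-type libraries 25, 27 and 29. In knockout libraries 31, 32 and 40 it was 0.381, 0.343 and 0.416. The groups did not overlap, and the ratio was higher by 0.89 on the log2 scale (0.58 without wild-type library 25). Ncf1 and Ncf4, in contrast, kept a similar ratio in both groups, 0.994, 1.020 and 1.202 in wild type and 1.14, 0.959 and 0.992 in knockout, with overlap (difference -0.05). The Rac2 to Rac1 ratio averaged 4.54 ± 0.513 in wild type and 5.21 ± 0.543 in knockout and overlapped between groups. The Vav1 to Vav3 ratio averaged 5.65 ± 0.542 and 7.30 ± 0.573 without overlap. Exact two-sided permutation tests gave p = 0.1 for Cybb/Cyba and Vav1/Vav3, the smallest value that 3 against 3 allows. They gave 0.3 for Rac2/Rac1 and 0.5 for Ncf1/Ncf4. Adjusted over the 5 ratios computed these were 0.167, 0.375 and 0.5, so the design could not pass 0.05 for any ratio.

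**Figure D3:**
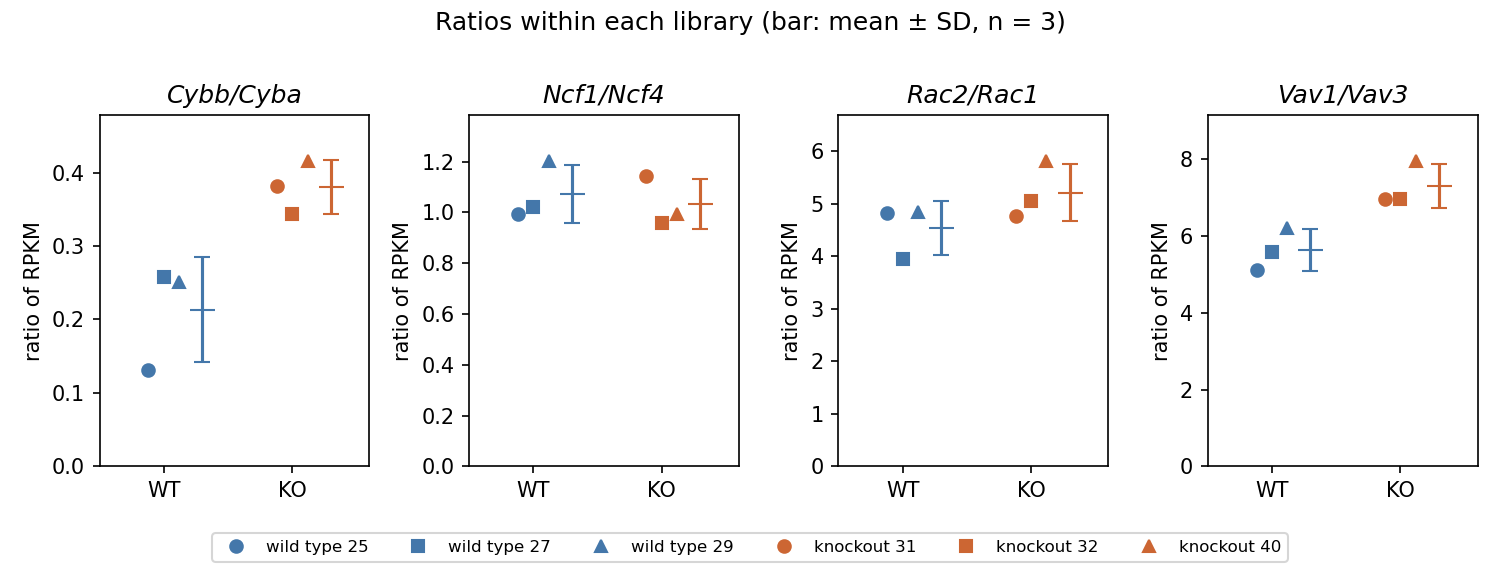
Ratios of RPKM within each library (vertical axes, starting at 0) for 4 pairs of partner or related genes, in the 3 wild-type (WT) and 3 knockout (KO) libraries, with bars for mean ± SD. The groups are separate for Cybb/Cyba and Vav1/Vav3 and overlap for Ncf1/Ncf4 and Rac2/Rac1.

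The members fell into differences of unlike size. The root mean square difference between 2 genes in log2 CPM over the 6 libraries, after each was centred on its own mean, was 0.07 for Cyba and Rac2, 0.08 for Cyba and Vav1 and 0.13 for Rac2 and Vav1. It was 0.12 for Ncf1 and Ncf4, and at least 0.36 between Cybb and any other member. Within the knockout group, the log2 SD was 0.31 for Cybb, 0.29 for Ncf4 and 0.12 for Rac2. In wild type it was 0.57 for Cybb and 0.04 for Ncf4. Knockout library 40, the highest for each member, also had the highest summed level of neutrophil and of monocyte markers.

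By the same measure over 6 libraries and 8852 protein-coding genes of at least 10 CPM, the genes most like Cybb were Pilra (0.08), Lgals3 (0.11) and Rgs3 (0.12). Those most like Cyba were Dok3, Rab28 and Nufip2 (0.02 to 0.03), and like Ncf1 they were Acpp, Inpp1 and Lrrfip2 (0.05 to 0.06). Arrb2, Tcp11l2 and Pygl lay nearest to Ncf4 (0.05 to 0.08), Jak1, Ppp1r2 and Golim4 to Rac2 (0.03 to 0.05), and Arl11, Rnh1 and Zfp236 to Vav1 (0.03 to 0.04). No member was among another member's 3 nearest genes. These are descriptions of 6 libraries in 2 groups, without a test.

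Among 26 other genes of oxidase assembly, activation and charge balance, 5 rose, 0 fell and 21 did not pass the edgeR test, with a median log2 fold change of 0.24. Of all genes tested, 5.45% were called higher. Prkcb, protein kinase C beta, went from 92.7 ± 4.86 to 143.6 ± 12.8 CPM (log2 fold change 0.63, adjusted p = 0.0122), and Prkcd, protein kinase C delta, from 313.0 ± 36.8 to 504.3 ± 65.3 CPM (0.69, adjusted p = 0.0225). Other kinases on the list, named after their values were seen, did not pass (adjusted p from 0.111 to 0.674). Prkcz had a log2 fold change of -0.99, Prkca -0.43, Dyrk1a 0.09, Akt1 0.10, Mapk14 0.21 and Pak2 0.26. Pak1, a kinase that RAC activates, rose by 0.82. S100a8, which is also on the neutrophil marker list and encodes a calcium-binding protein that delivers arachidonic acid to the oxidase, went from 173.6 ± 118 to 1507 ± 586 CPM (log2 fold change 3.12, adjusted p = 0.0378), and its partner S100a9, named after its values were seen, was the last of the 5. The count was 2 without wild-type library 25 or knockout library 31 or 40, and 3 without wild-type library 27.

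Cybc1, the chaperone needed for gp91phox and p22phox to accumulate, had means of 110.0 ± 5.33 and 136.9 ± 10.4 CPM (log2 fold change 0.32, adjusted p = 0.0751). Rac1, the widely expressed relative of Rac2, had 262.0 ± 20.9 and 312.2 ± 10.9 CPM (0.25, adjusted p = 0.132).

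Counts of the other NADPH oxidase genes were at or near 0 at this depth. Nox3 and Nox4 had 0 counts in all 6 libraries, Duox2 had 1 count and Duox1 had 7 counts in the wild-type group, all in library 29, and 2 in the knockout group. Nox1 had 21 counts over the wild-type and 15 over the knockout group. Of 13 genes on the list of other oxidases, their organisers and RAC relatives, 5 passed the low-count filter and 0 passed the edgeR test. Groups did not overlap, with knockout on top, for 3 of the 5 and for 17.2% of all tested genes. Rhog, a GTPase upstream of RAC, had a log2 fold change of 0.32 (adjusted p = 0.0581), and Rac3 one of -0.23 (adjusted p = 0.662) at 2.43 ± 0.395 CPM in wild type.

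Among 18 tested regulators of RAC, 3 rose, 0 fell and 15 did not pass, with a median log2 fold change of 0.06. The share called higher over all genes was 5.45%. Prex1, an exchange factor downstream of chemoattractant receptors in neutrophils, rose by 0.62 (edgeR adjusted p = 0.0386), Tiam2 by 0.95 (0.0427) and Dock5 by 0.49 (0.0433). The count was 0 with total-count scaling or without wild-type library 29, knockout library 32 or knockout library 40, and 1 without any other library. The relatives of Vav1 had log2 fold changes of 0.03 for Vav3 (95% interval -0.17 to 0.23) and -0.20 for Vav2.

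Of 21 genes of receptor-proximal signalling, 8 rose, 0 fell and 13 did not pass the edgeR test, with a median log2 fold change of 0.37. The share called higher over all genes was 5.45%. Fgr, a tyrosine kinase of phagocytes, went from 36.9 ± 6.396 to 147.3 ± 37.9 CPM (log2 fold change 2.00, adjusted p = 0.00456). The adaptor genes Tyrobp and Fcer1g rose by 0.69 and 0.52. The count was 3 with total-count scaling, 2 without wild-type library 25, 4 without wild-type library 27 and 3 without wild-type library 29 or knockout library 31 or 40.

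The oxidase draws its electrons from NADPH, and its products are met by oxidant-handling enzymes. Of 9 tested NADPH supply genes, 3 rose, 0 fell and 6 did not pass (median log2 fold change 0.39), where 5.45% of all tested genes were called higher. G6pdx, the rate-limiting enzyme of the pentose phosphate pathway and X-linked like Cybb, had 153.2, 191.4 and 214.1 CPM in wild-type libraries 25, 27 and 29. Its knockout levels (libraries 31, 32 and 40) were 414.8, 340.5 and 432.6 CPM. Its groups were far apart, with a log2 fold change of 1.09 (95% interval 0.75 to 1.43, edgeR adjusted p = 0.00804). Pgd, the other NADPH-making dehydrogenase of that pathway, rose by 0.56 and Idh1 by 0.43. The count was 1 on leaving out wild-type library 25, wild-type library 27, knockout library 31 or knockout library 40. Of 21 oxidant-handling genes, Prdx5, a peroxiredoxin, rose by 0.86 (adjusted p = 0.0126) and 20 did not pass (median 0.02). A count of 1 in 21 is near the 5.45% called higher over all genes. The difference between these lists was not tested.

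Of 18 transcription factor genes with described roles at oxidase promoters, 4 rose, 1 fell and 13 did not pass the edgeR test (median log2 fold change 0.21). Over all genes tested, 5.45% were called higher and 8.57% in either direction. Spi1, which encodes PU.1, had 312.5, 331.2 and 302.6 CPM in wild-type libraries 25, 27 and 29. Its knockout levels (libraries 31, 32 and 40) were 413.0, 396.5 and 462.3 CPM, with no overlap. Its log2 fold change was 0.43 (95% interval 0.20 to 0.65, adjusted p = 0.0368). The IRF genes on the list, named after their values were seen, did not pass. Irf1 had a log2 fold change of 0.93 (edgeR adjusted p = 0.0682), Irf8 0.40 (0.376) and Irf2 0.25 (0.316). Of the C/EBP family, Cebpd, Cebpe and Cebpb (the last named after its values were seen) rose by 1.05, 0.85 and 0.91. Cebpa, also named after its values were seen, went the other way and did not pass (-0.34, edgeR adjusted p = 0.227). Hoxa9 fell by 1.198. The count that rose was 1 without wild-type library 25 or 27 and 2 without wild-type library 29 or knockout library 31 or 40. Hoxa9 was not called without wild-type library 27 or without any 1 knockout library.

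**Figure D4:**
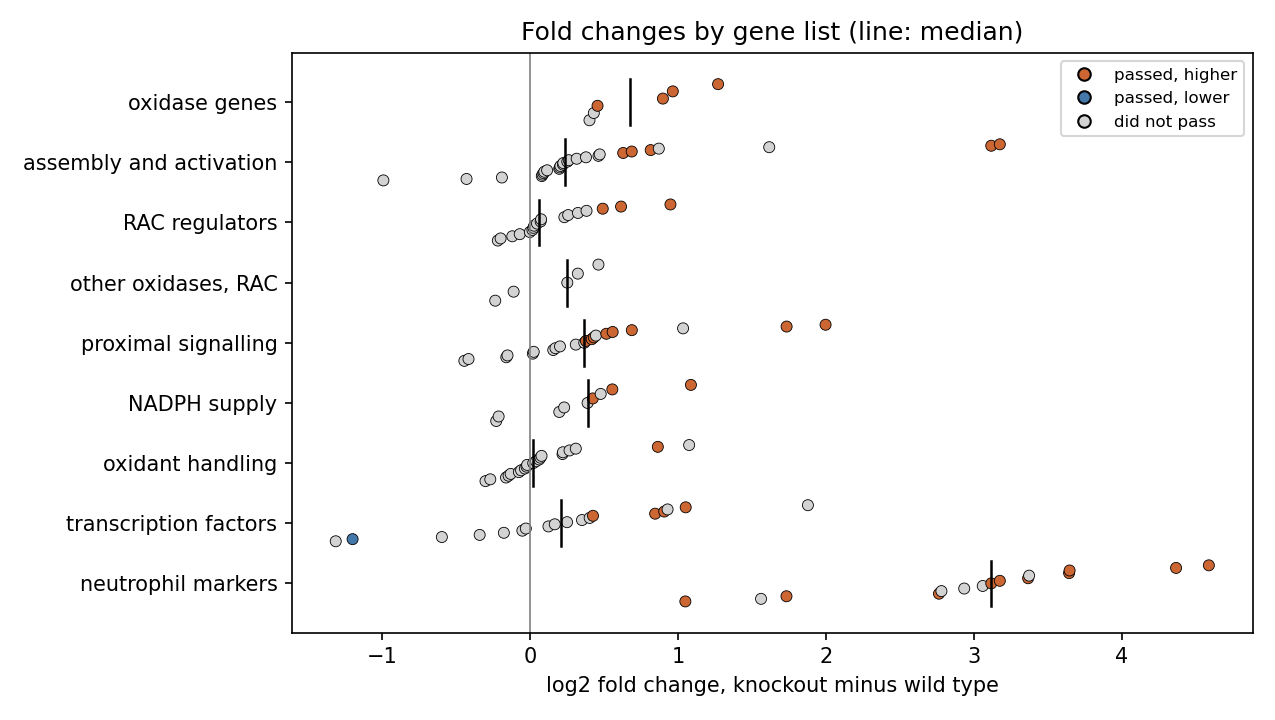
Log2 fold changes, knockout minus wild type (horizontal axis), of the tested genes of each list, 1 point per gene, with a line at each list's median. Filled orange and blue points passed the edgeR test and grey points did not. The oxidase genes span 0.40 to 1.27, while the neutrophil markers span 1.05 to 4.59.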

How the data were processed

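Bulk RNA of 6 libraries, 3 per group as given by the sample titles, was compared. The authors deposited whole-number counts per gene, not normalized, in 1 column per library, together with gene lengths. The submitters' processing notes name Salmon, limma, GRCm38 and mm10, and give no role for any. The sources used here do not state the counting step, its use of strand or whether these are read counts or rounded Salmon estimates. Whether the samples came from separate animals is not stated beyond the words independent and biological, so p-values measure the spread between these libraries.

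Genes were kept by filterByExpr (minimum count 10, minimum total 15), scaled by TMM and tested with edgeR 4.0.16 in R 4.3.3 (robust quasi-likelihood fit, knockout against wild type, no covariates, Benjamini-Hochberg over all genes). Standard errors and 95% intervals came from the F statistic and its degrees of freedom. The text names the 6 members, up to 4 called genes per list by smallest p (with none called, the 2 smallest), oxidase relatives, and the 3 genes nearest to each member. Some genes that this rule names are not reported here. The 7 pathway and 11 marker lists and the members were chosen with earlier results of these data known. DESeq2 1.42.0, limma-voom (limma 3.58.1) and the settings named at the end were alternatives. Tested on simulated data for this comparison (15963 genes, 5 draws, 200 changed genes of at least 10 CPM each), the fit recovered 18.7% of 1.5-fold, 72.4% of 2-fold and 96.1% of 4-fold changes, and 8.63% of its calls were false. Total counts of 26359299 to 31807588 put at least 6907 counts behind each member in each library, so counting error is small for each. Its share of the spread between libraries, which was narrow in wild type for Ncf4 and Cyba, was not estimated.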

Additional observations from a re-analysis of the deposited data

How the results depend on the processing

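All 6 members kept a positive log2 fold change under every alternative run in which they were tested (Cybb is untested without chromosomes X and Y). Ncf1 and Ncf4 stayed past the threshold in 15 of 16 alternatives. With wild-type libraries 27 and 29 both left out, where 1 wild-type library is assumed to vary like the knockout libraries, their values were 1.00 and 0.96 (edgeR adjusted p = 0.055 and 0.0957), Rac2 was at 0.37 (0.302), Cybb was at 1.99 (0.0203) and was the 1 member called, and 453 genes were called in all (305 higher, 148 lower). Without a filter Cybb was lost (1.25, adjusted p = 0.173), Cyba and Vav1 passed (0.41 and 0.38, adjusted p = 0.0178 and 0.0351), and 836 genes were called lower. Cyba also passed with at least 1 CPM in 3 libraries (0.43), DESeq2 (0.43) and limma-voom (0.42). Total-count scaling lost Rac2 (0.33) and called 0 RAC regulators and 3 signalling genes, and gave 597 higher and 682 lower genes against 870 and 498. DESeq2 called 2472 genes (1485 higher, 987 lower). The cause of these changes was not tested.

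With 1 library left out, log2 fold changes were 1.01 to 1.43 for Cybb, 0.32 to 0.50 for Cyba, 0.76 to 0.97 for Ncf1, 0.80 to 1.10 for Ncf4, 0.39 to 0.49 for Rac2 and 0.30 to 0.47 for Vav1. Members called ranged from 2 to 3 and all genes from 347 to 1227 (245 to 787 higher, 102 to 440 lower). List counts of higher genes ranged from 2 to 5 (assembly), 0 to 1 (RAC regulators), 2 to 6 (signalling), 1 to 4 (NADPH supply) and 1 to 5 (transcription factors, with 0 to 1 lower). The log2 ratio differences were 0.58 to 1.06 for Cybb/Cyba, 0.10 to 0.26 for Rac2/Rac1 and 0.30 to 0.44 for Vav1/Vav3, and -0.131 to 0.0309 for Ncf1/Ncf4, which changed sign without wild-type library 29. No paired analysis was possible because the library numbers are not shared between the groups.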
